A study of Oryza sativa Japonica Group with 6 samples.

Results

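The type-A response regulators of rice are small nuclear and cytoplasmic proteins that end the cytokinin phosphorelay. Cytokinin is bound by receptor histidine kinases, the phosphate passes through histidine phosphotransfer proteins, and type-B response regulators then switch on their targets, among which the type-A genes are the best known. The type-A proteins take up the phosphate and have no DNA-binding domain, so they damp the signal that induced them, and their transcripts are widely read as a sign of cytokinin response. In roots, cytokinin is known from Arabidopsis to favour differentiation where cells leave the meristem, and type-A members counter it in the stem cell niche.

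Transcripts of 9 type-A genes, RR1 to RR7, RR9 and RR10, were followed in RNA-seq libraries of root tips of Oryza sativa Japonica group. The genes were chosen by locus identifier, from cytokinin nomenclature and not from their values, though earlier results of these data were known. All 9 were among the 31010 genes listed in the deposited table. There were 3 libraries of plt345, labelled as the triple mutant of PLT3, PLT4 and PLT5, and 3 of the wild type cultivar Zhonghua 11. PLT3, PLT4 and PLT5 belong to the PLETHORA family, AP2-type regulators of root stem cells, and neither the nature of the mutations nor the number of lines is stated in the labels. Both genotypes were untreated seedlings of 7 days, grown in 14 h of light and 10 h of dark, from which about 0.8 cm of the root tip was taken. The design text asks how these factors bear on gene expression in the root meristem.

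The libraries held between 20759896 and 21309371 reads on genes. Values, taken as counts divided by the authors' size factor for each library, are called normalized counts. The limma test was run on log2(value + 1) for genes whose mean was 10 normalized counts or more, and a gene was called when its Benjamini-Hochberg adjusted p over all tested genes was under 0.05. Whether the libraries are separate batches of plants is not stated, so the p-values here rest on a spread that may be only technical. Transcripts of the mutated genes were present in both genotypes. They ranged from 218 to 1277 normalized counts in plt345 libraries and from 249 to 584 in wild type libraries. PLT5 averaged 1268 ± 9.02 in plt345 and 531 ± 28.9 in wild type, 2.39-fold higher (limma adjusted p = 1.1e-17). PLT4 averaged 231 ± 13.0 in plt345 and 270 ± 19.8 in wild type and was called lower (limma adjusted p = 0.0198). PLT3 averaged 576 ± 19.8 in plt345 and 580 ± 5.92 in wild type and did not pass. These values say nothing on whether the proteins work. Of the tested root meristem marker genes, all 7 were detected in both genotypes. Markers of green shoot tissue summed to between 16.6 and 29.8 normalized counts in plt345 libraries and between 60.3 and 68.1 in wild type libraries. The difference lay almost wholly in CAB1R, named after its value was seen, with 3.56 ± 1.98 in plt345 and 43.2 ± 3.11 in wild type. Of the other green tissue markers, 1 did not pass and 2 were below a mean of 10.

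Of the 9 type-A genes, 8 reached the mean of 10 and were tested. In plt345 RR3, RR4, RR7, RR9 and RR10 fell, between 1.12-fold and 1.65-fold, and RR1, RR2 and RR6 did not pass. None passed as higher in limma, where 0 had an unadjusted p under 0.05 in that direction, and the count was also 0 in edgeR and in the authors' deposited DESeq2 table. That table called 3 of the 8 lower, against a background of 28.6% of tested genes, and edgeR called 5, against 33.5%. Called lower were 62.5% of the tested members, against a background of 34% of all 23166 tested genes that were lower, 34% that were higher and 68% called in either direction. The share of members called at all is thus close to that of genes in general. With library totals as scaling in place of the authors' size factors, 3 members were lower and RR2 was called higher, against a background of 25.9% of genes lower and 40.4% higher under that scaling. Over all genes that scaling gave 60.9% of calls higher in place of 50.1%, and it raised the log2 fold change of the median gene by 0.09.

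**Figure D1:**
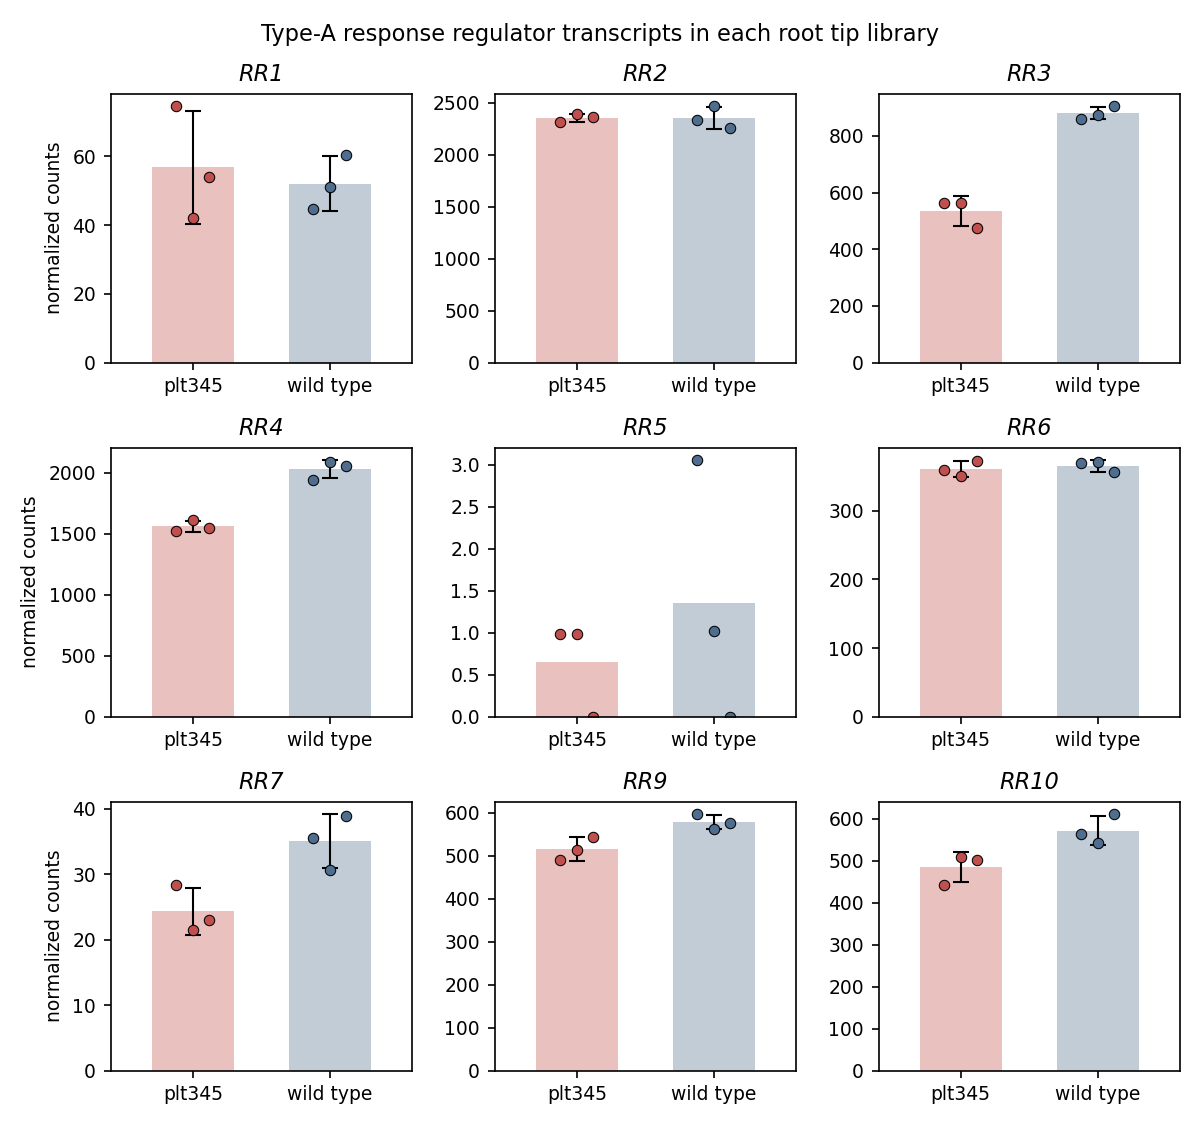
Normalized counts of each type-A gene in the 3 plt345 and 3 wild type libraries, one panel per gene with its own axis from 0. Points are libraries, bars are means and whiskers are SD, left out for RR5, which had 0 to 3 reads per library. In RR3, RR4, RR7, RR9 and RR10 every plt345 point lies below every wild type point, and in RR1, RR2 and RR6 the points overlap.

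RR3 (LOC_Os02g58350) changed most. It had 565, 565 and 476 normalized counts in plt345, against 861, 876 and 904 in wild type. Every plt345 library lay below every wild type library, and the lowest was plt345 replicate 3. The means were 535 ± 51.2 in plt345 and 880.4 ± 21.95 in wild type (SD, n = 3 each), 1.65-fold lower. On the log2 scale this was -0.72 (SE 0.06, 95% interval -0.84 to -0.60, limma adjusted p = 5.1e-11), and without plt345 replicate 3 it was -0.64. In bulk root tips, fewer cells that express a gene and less of its RNA per cell cannot be told apart, and this holds for each result here.

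RR4 (LOC_Os01g72330) fell less. It had 1526, 1615 and 1546 normalized counts in plt345, against 1945, 2088 and 2054 in wild type, with no overlap. The means were 1562 ± 47.0 in plt345 and 2029 ± 74.4 in wild type, 1.30-fold lower, or -0.38 on the log2 scale (SE 0.04, 95% interval -0.46 to -0.30, limma adjusted p = 3.9e-09). RR3 and RR4 were called lower under every alternative setting tried.

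RR9 (LOC_Os11g04720) and RR10 (LOC_Os12g04500) are a pair of close paralogs on chromosomes 11 and 12, known as negative regulators of salt tolerance in rice. Their sequences are so alike that reads could be split between them by the counting, and their separate values are uncertain to that extent. RR9 had 489, 513 and 543 normalized counts in plt345, against 596, 563 and 576 in wild type. RR10 had 443, 509 and 502 in plt345, against 563, 542 and 611 in wild type. Neither gene overlapped between genotypes, and plt345 replicate 1 was the lowest library for both. The log2 fold change was -0.17 for RR9 (SE 0.06, limma adjusted p = 0.0109) and -0.24 for RR10 (SE 0.06, limma adjusted p = 0.00154). Their sum, which does not depend on how reads are split between the copies, was 999.7 ± 59.4 in plt345 and 1150.2 ± 41.8 in wild type, a ratio of 0.869. Reads matching both copies would be missing from this sum if the counting dropped them, and its settings are not given. RR9 took 51.5 ± 1.20% of that sum in plt345 and 50.3 ± 1.54% in wild type, a difference within the spread between libraries.

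The calls of this pair differed in strength. RR10 was called lower under every alternative tried, with log2 fold changes from -0.28 to -0.15. RR9 was no longer called under library totals (-0.08 on the log2 scale, limma adjusted p = 0.222), in the authors' deposited table (-0.17, DESeq2 adjusted p = 0.0683) and without plt345 replicate 1 (-0.13, limma adjusted p = 0.0641). The log2 ratio of RR9 over RR10 within a library overlapped between genotypes and differed by 0.07.

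RR7 (LOC_Os07g26720) was scarce, with 75 reads over the plt345 libraries and 103 over the wild type libraries. It had 28.4, 21.5 and 23.1 normalized counts in plt345, against 35.6, 30.7 and 38.9 in wild type. The genotypes did not overlap, with plt345 replicate 1 and wild type replicate 2 the nearest to each other. The log2 fold change was -0.51 (SE 0.22, 95% interval -0.96 to -0.06, limma adjusted p = 0.0412). This call was lost with library totals (-0.43), with no filter on low values (limma adjusted p = 0.0562), in the authors' deposited table (DESeq2 adjusted p = 0.178), and without plt345 replicate 2 (-0.43), plt345 replicate 3 (-0.48), wild type replicate 1 (-0.50) or wild type replicate 3 (-0.44).

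RR2 (LOC_Os02g35180), which the crown root regulator WOX11 is known to repress in rice, stayed within its spread. It had 2317, 2390.2 and 2362 normalized counts in plt345, against 2335, 2468 and 2255 in wild type, and the plt345 libraries lay inside the wild type range. The means were 2356 ± 36.9 in plt345 and 2353 ± 108 in wild type, and the log2 fold change was 0.0031 (SE 0.04, limma adjusted p = 0.945). The 95% interval ran from -0.07 to 0.08, with 7262 reads in plt345 and 6913 in wild type. With library totals RR2 was slightly higher in plt345 (log2 fold change 0.09, limma adjusted p = 0.0334).

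RR6 (LOC_Os04g57720), whose overexpression is known to stunt roots and shoots of rice, had 359.9, 350.3 and 373 normalized counts in plt345, against 369, 371 and 356 in wild type. The genotypes overlapped. The log2 fold change was -0.02 (SE 0.06, 95% interval -0.15 to 0.11, limma adjusted p = 0.82), and it turned to 0.07 with library totals. The SD between libraries was 0.611 times the spread that counting alone gives in plt345 and 0.427 times in wild type.

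RR1 (LOC_Os04g36070) is a known direct target of CRL5, another AP2-type factor that promotes crown root initiation in rice. It had 74.5, 42.1 and 53.8 normalized counts in plt345, against 44.7, 51.1 and 60.4 in wild type. The highest and the lowest library were both plt345, and the coefficient of variation there was 28.9%, 2.21 times the 13.1% of counting alone. The log2 fold change of 0.10 had a 95% interval from -0.30 to 0.49 (SE 0.19, limma adjusted p = 0.675), which leaves room for a change in either direction. RR5 (LOC_Os04g44280) was near absent, with 1, 1 and 0 reads in plt345 and 3, 1 and 0 in wild type. Its ratio of plt345 over wild type was 0.477 with an exact 95% counting interval of 0.0431 to 3.33, so no difference was detectable at this depth.

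**Figure D2:**
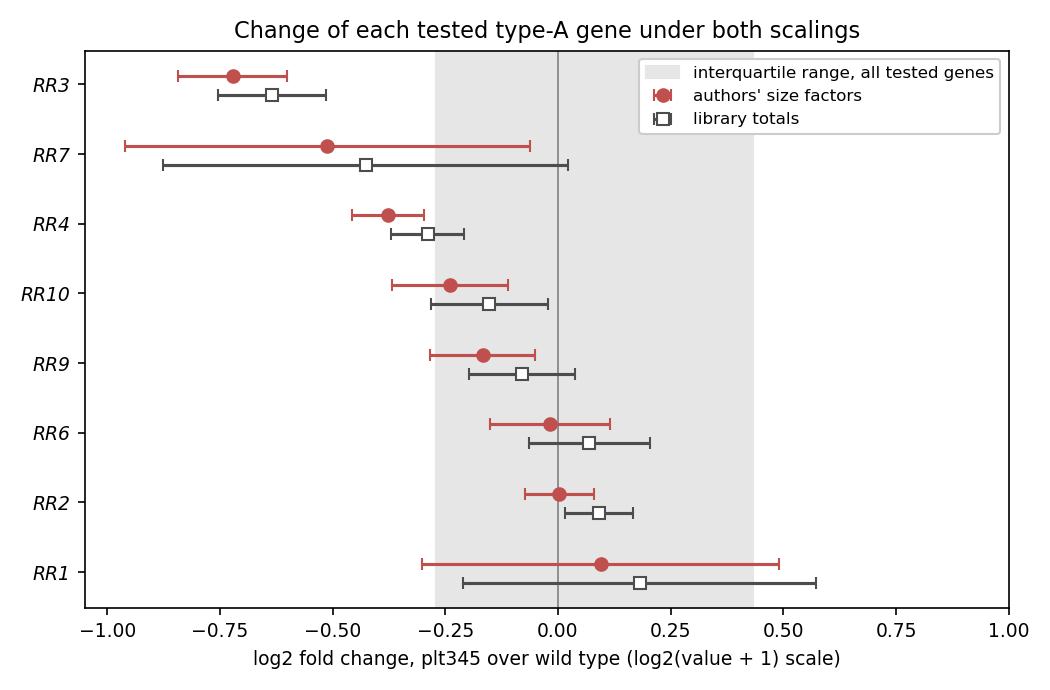
Change on the log2 scale, plt345 over wild type, for the 8 tested type-A genes, with 95% limma intervals, under the authors' size factors (filled circles) and under library totals (open squares). Grey marks the interquartile range of all tested genes under the authors' size factors, -0.27 to 0.43, and was not redrawn for library totals. The points of RR3, RR7 and RR4 lie below that range under both scalings, RR4 only just with library totals (-0.29). RR2 and RR6 lie near 0.

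The median log2 fold change of the 8 tested members was -0.20, against -0.01 for all tested genes, and they ranged from -0.72 to 0.10. The median size of the change, without sign, was 0.20 for the members and 0.32 for all tested genes, with RR3, RR7 and RR4 above the value for all tested genes. None of the 8 changed at least 2-fold in limma, edgeR or the authors' deposited table, at adjusted or unadjusted p, against a background of 16.7% of tested genes in limma. Every plt345 library was below every wild type library in 5 of 8 members, against a background of 35.5% of tested genes in that direction and 71% in either.

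The summed normalized counts of the 9 genes were 5804, 6006 and 5879 in plt345, against 6753, 6990 and 6856 in wild type. The sums did not overlap, and their ratio was 0.859. As CPM, that is scaled to library totals, the sums were 290 ± 5.28 in plt345 and 318 ± 6.44 in wild type, a ratio of 0.912. Within the sum, the share of RR2 was 40.0 ± 0.191% in plt345 and 34.3 ± 1.24% in wild type. RR3 made up 9.08 ± 0.864% of it in plt345 and 12.8 ± 0.339% in wild type, and RR4 26.5 ± 0.346% in plt345 and 29.5 ± 0.643% in wild type. These are shares of reads, not corrected for transcript length, so they show shifts between genotypes and not which transcript is the more abundant.

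A ratio of 2 genes within a library does not depend on how libraries are scaled, and 9 such ratios were compared between genotypes. RR2 was the reference in most of them, and its own log2 fold change was 0.0031. The differences over RR2 therefore nearly repeat each gene's own fold change under the authors' size factors and are not separate support. The log2 ratio of RR3 over RR2 was -2.14 ± 0.147 in plt345 and -1.42 ± 0.0905 in wild type, a difference of -0.73. That of RR4 over RR2 was -0.59 ± 0.0244 in plt345 and -0.21 ± 0.0690 in wild type, a difference of -0.38. Neither overlapped between genotypes. The ratios of RR7 and RR10 over RR2 did not overlap either, with differences of -0.53 and -0.24. For each of these the exact two-sided permutation p was 0.1, the smallest that 3 libraries against 3 can give, and 0.18 after Benjamini-Hochberg adjustment over the 9 ratios. RR6, RR9 and RR1 over RR2 overlapped between genotypes, with differences of -0.02, -0.17 and 0.09. The ratio of RR3 over RR4 did not overlap between genotypes either, with a difference of -0.35 (exact permutation p = 0.1).

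**Figure D3:**
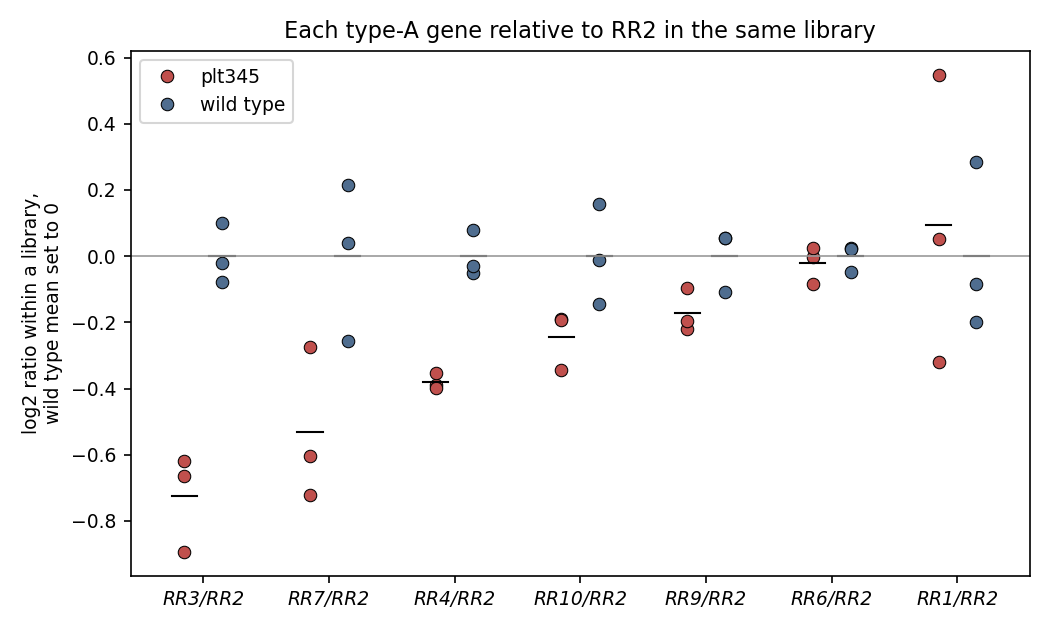
Log2 ratio of each type-A gene over RR2 in the same library, with the wild type mean of each ratio set to 0. Points are the 3 plt345 and 3 wild type libraries and short lines are means. The plt345 points of RR3, RR7, RR4 and RR10 lie below all wild type points, and those of RR9, RR6 and RR1 overlap them.

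The other genes of the pathway were taken from lists by role, 53 genes with 38 tested. Of these 19 were higher in plt345, 7 were lower and 12 did not pass, so that 68.4% were called, close to the background of 68% of all tested genes. RR8, RR11, RR12 and RR13, the other type-A genes in the lists, had no row in the table and were not analysed here. Type-B regulators, which activate type-A genes, were higher in 3 of 5 tested members and lower in 1, the median log2 fold change being 0.96, against a background of 34% of genes in each direction. RR26 (LOC_Os01g67770) averaged 313 ± 21.7 normalized counts in plt345 and 76.9 ± 12.9 in wild type, 4.07-fold higher (log2 fold change 2.02, limma adjusted p = 3.6e-14). RR23 (LOC_Os02g55320) and RR22 (LOC_Os06g08440) were 2.15-fold and 1.95-fold higher. RR21 (LOC_Os03g12350), named after its value was seen, averaged 918 ± 54.6 in plt345 and 1199.6 ± 30.7 in wild type and fell (log2 fold change -0.39, limma adjusted p = 6.3e-08).

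Of the 4 receptor kinase genes 3 were higher, by at most 1.55-fold, and 1 was lower, against a background of 34% in each direction. HK3 (LOC_Os01g69920) averaged 1629 ± 49.95 normalized counts in plt345 and 1052 ± 30.8 in wild type (log2 fold change 0.63, limma adjusted p = 6e-13). HK4 (LOC_Os03g50860) was also higher (log2 fold change 0.24) and HK6 (LOC_Os02g50480) was lower (-0.25). Among the phosphotransfer proteins AHP2 (LOC_Os09g39400) rose, with 965 ± 41.1 in plt345 and 674 ± 29.0 in wild type, and AHP1 (LOC_Os08g44350) fell, with 1493 ± 58.9 in plt345 and 1970.3 ± 126 in wild type. The 3 pseudo-phosphotransfer genes, whose proteins lack the phosphate-accepting histidine, did not pass. PHP2 (LOC_Os05g09410) had a log2 fold change of 0.37 (limma adjusted p = 0.179).

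The IPT family includes the enzymes that make the first cytokinin precursor, though membership alone does not show that a gene does so. Of 6 tested IPT genes 3 fell while the other 3 did not pass. The share called, 50%, was below the background of 68%, and the share lower was above the background of 34%. IPT9 (LOC_Os01g73760) averaged 544 ± 4.14 in plt345 and 645 ± 36.8 in wild type. IPT4 (LOC_Os03g59570) averaged 77.0 ± 16.9 in plt345 and 110.9 ± 16.0 in wild type. IPT8 (LOC_Os01g49390) averaged 8.11 ± 1.09 in plt345 and 18.7 ± 4.62 in wild type, and reached the mean of 10 only through wild type. CYP735A4 (LOC_Os09g23820), of the family that makes trans-zeatin forms, rose 1.84-fold, and CYP735A3 (LOC_Os08g33300) did not pass (log2 fold change 0.07, limma adjusted p = 0.75). The LOG enzymes release active cytokinin from its nucleotides. Of 10 tested LOG genes 8 were higher and the other 2 did not pass, against a background of 34% of genes higher. The median log2 fold change was 1.35. LOGL3, LOGL6 and LOGL9, named after their values were seen, were among the 8. Their wild type means were 8.84, 9.19 and 9.52, so they reached the mean of 10 only through plt345. LOG (LOC_Os01g40630) averaged 802 ± 29.8 in plt345 and 277 ± 13.6 in wild type, 2.89-fold higher, LOGL8 (LOC_Os05g51390) was 4.43-fold higher and LOGL7 (LOC_Os05g46360) 8.64-fold higher. With library totals 9 of the 10 were higher, against a background of 40.4%, LOGL1, named after its value was seen, being the addition.

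Cytokinin oxidases, which degrade the hormone, included 3 higher and 1 lower of 6 tested, and the 66.7% called were close to the background of 68%. CKX11 (LOC_Os08g35860) averaged 302 ± 33.7 in plt345 and 40.8 ± 4.54 in wild type. CKX4 (LOC_Os01g71310) averaged 60.4 ± 5.48 in plt345 and 4.75 ± 4.69 in wild type, and reached the mean of 10 only through plt345. CKX1 (LOC_Os01g09260) averaged 4.22 ± 1.51 in plt345 and 104 ± 7.98 in wild type, and reached the mean of 10 only through wild type. The tested oxidases ran from a log2 fold change of -4.36 (CKX1) to one of 3.70 (CKX4). Both ends are genes that reached the mean of 10 through 1 genotype only. The tested type-A genes lay between -0.72 and 0.10. Lists of this size were not set against other genes by a test.

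**Figure D4:**
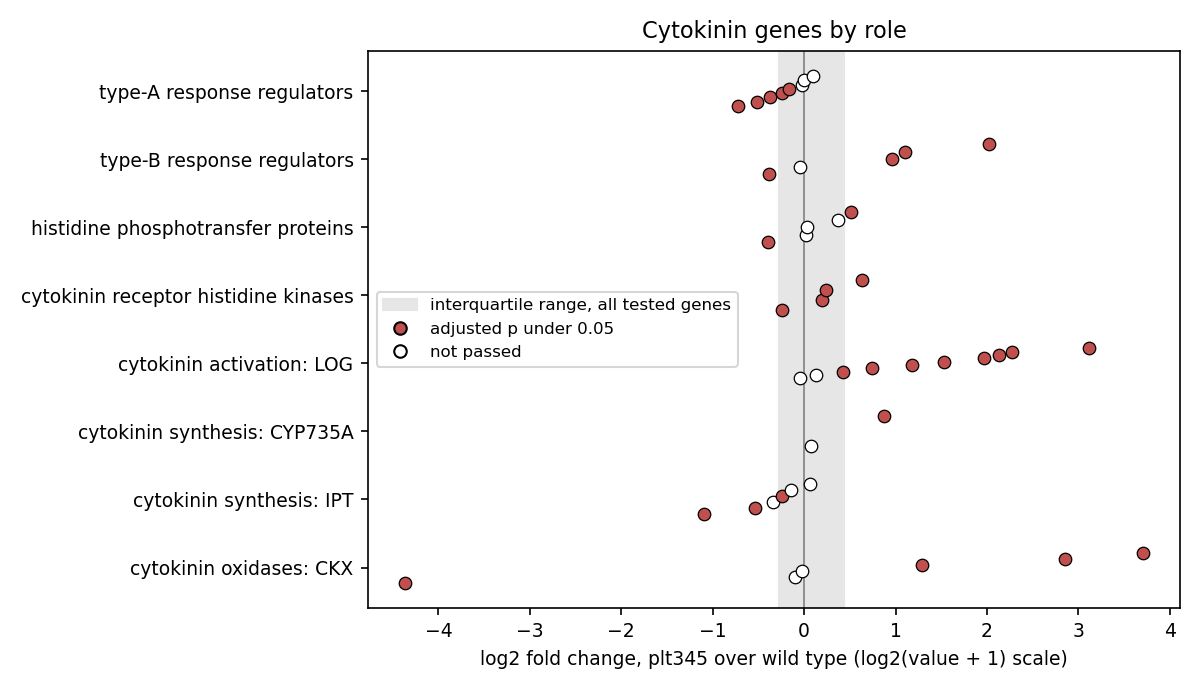
Change on the log2 scale, plt345 over wild type, for each tested cytokinin gene, one row per role. Filled points passed a limma adjusted p under 0.05, open points did not, and grey marks the interquartile range of all tested genes. Type-A genes lie between -0.72 and 0.10. Of 10 LOG genes 8 are filled and to the right of 0, against a background of 34% of tested genes called higher. Among them LOGL3, LOGL6 and LOGL9 reached the mean of 10 only through plt345.

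Marker genes of other root cell types moved in the same libraries. The background for each count is 34% of all tested genes higher and 34% lower. All 8 dividing cell markers fell, the median log2 fold change being -0.38. They summed to between 7947 and 8175 normalized counts in plt345 and between 10352 and 10640.1 in wild type. All 3 xylem markers rose, with sums between 3873 and 3904 in plt345 and between 2247 and 2307 in wild type, and 6 of 7 root meristem markers rose. Root hair markers rose in 2 of 3, with sums from 2694 to 2842 in plt345 and from 2356 to 2613 in wild type. With library totals all 7 root meristem and all 3 root hair markers were called higher, against a background of 40.4%. Of the mature endodermis and uptake markers, 2 rose and 1 fell, with sums from 8374 to 8623 in plt345 and from 3729 to 3903 in wild type. Those that rose were LSI1 (3.90-fold) and LSI2 (4.72-fold), named after their values were seen. CASP1 fell, with 1577 ± 64.1 normalized counts in plt345 and 2159 ± 67.4 in wild type. The part of all these markers in the type-A result was not tested. Among the 64 tested genes of the cytokinin and marker lists, the 2 whose profile over the 6 libraries was most like the mean profile of the tested type-A genes were CASP1 (Pearson r = 0.98) and CKX1 (r = 0.973). These correlations are a description, since the 6 points share their 2 genotypes.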

How the data were processed

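RNA from 6 root tip libraries was read in paired-end mode on the BGISEQ-500 platform, per the labels' protocols. HISAT2, featureCounts 2.0.0 and DESeq2 1.38.3 were used, per the submitters' processing notes, which give no settings here. Genome build, annotation and the use of strand are not stated in these sources, so reads of overlapping or antisense genes cannot be told apart. The authors deposited 1 table, whose signal per library was taken as the read count of a gene divided by a size factor. Next to this signal stand the authors' DESeq2 log2 fold change and standard error, the Wald score and p-values, per the file headers. Dividing by what 1 read is worth in each library gave a whole number, within 0.01 of a read, for 100% of values, so whole reads were recovered. On them edgeR 4.0.16 called 15901 genes. Of the 31010 listed genes, 23166 with a mean of at least 10 entered, as log2(value + 1), a fit with limma 3.58.1 under R 4.3.3 (two-sided moderated test with a mean-variance trend, no block), and limma called 15751. Fold changes of scarce genes are understated by the pseudocount of 1. Fold values are ratios of means. Counting intervals cover counting error only.

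The chi-square per gene between libraries was 1.42 to 2.08 within a genotype, above sampling noise, and 53.3 to 54.8 across genotypes, so no library repeats another. The type-A genes and the lists were chosen with earlier results of these data known. Besides the type-A genes, those named are up to 3 per cytokinin list with the smallest adjusted p, the 2 genes most like the type-A profile, the mutated genes, and exceptions marked as such. Gene symbols were paired with locus identifiers from rice nomenclature. Each of 90 pairs was checked against the RefSeq table (assembly ASM3414082v1) for a gene of that symbol on the chromosome in the identifier, at most 1 Mb from its interpolated place. It did for 56, among them 7 of the 9 type-A genes. The symbol was not found for 28, among them RR3, RR26, all 10 IPT genes and both CYP735A genes, 4 lay farther away, and 2, RR7 among them, had too few neighbours to check. The tests were tried on simulated data, and 14 alternative settings were run.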

Additional observations from a re-analysis of the deposited data

How the results depend on the processing

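The count of type-A genes called was 5, or 62.5% of those tested, against a background of 68% of all genes tested. Under the alternatives the count stayed within 1.5 times of that, except in the authors' deposited DESeq2 table, which called 3 (RR3, RR4 and RR10). With library totals the 4 called were 3 lower and RR2 higher, so the count lower was 3 there too. Under the authors' size factors, leaving out 1 library at a time gave 4 to 5 type-A genes called. The count over all genes was 14766 to 15272 with 1 library left out, and that of the other cytokinin genes 26 to 27. The replicate numbers mark no pairs in the labels, and deviations of same-numbered libraries correlated between -0.00085 and 0.024. This cannot exclude pairs, since libraries of 1 genotype differ little beyond sampling noise (chi-square per gene 1.42 to 2.08). With the replicate number as a block 15913 genes, 5 type-A genes and 26 other cytokinin genes were called. Signs turned for RR1, RR2 and RR6, which had no call. With 1 library left out, the log2 fold change of RR1 ran from -0.12 (without plt345 replicate 1) to 0.29, that of RR2 from -0.0269 (without wild type replicate 3) to 0.0382, and that of RR6 from -0.0415 to 0.0039 (without plt345 replicate 2). With library totals RR6 was at 0.0696. The cause was not tested. RR7 is below a mean of 50 and has no value with that filter. Reads were few for RR1, RR5 and RR7, with 175, 2 and 75 in plt345 and 153, 4 and 103 in wild type. For RR1 the spread between plt345 libraries was also 2.21 times that of counting alone, so depth is not its only limit.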
